A study of Mus musculus with 53 samples.

Results

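Sox17 and Sox7 are 2 of the 3 SOXF transcription factor genes of the mouse and both are classical genes of the extra-embryonic endoderm. CUT&RUN peaks for SOX2, GATA6, H3K27ac and H3K4me1 were examined around these 2 genes, chosen by name out of 21938 protein-coding genes, from naive pluripotency to naive extra-embryonic endoderm. Each gene was taken with 80 kb on either side of its gene body, which is called its window. In the mm10 assembly Sox17 (ENSMUSG00000025902) lies on the minus strand at chr1:4490931-4497354 and its window spans chr1:4410931-4577354 (166.424 kb). Sox7 (ENSMUSG00000063060) lies on the plus strand at chr14:63943673-63950732, and its window spans chr14:63863673-64030732 (167.06 kb). The Sox17 window holds no other protein-coding gene, only the transcript Gm37587 that overlaps its 5′ end, 2 processed pseudogenes and an snRNA gene. By contrast, the Sox7 window takes in most of Pinx1 upstream and 4930578I06Rik and most of Rp1l1 downstream, so a peak there cannot be assigned to Sox7 by position alone.

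All cells were SGGC mouse embryonic stem cells (ESCs), derived from the E14JU line, or endoderm made from them. SGGC cells have GFP fused to endogenous SOX2 and mCherry fused to endogenous GATA6, and every library came from clone B9 or clone B12. Pluripotent cells were grown in 2iLIF (a MEK inhibitor, a GSK3 inhibitor and LIF) or in NACL (activin A, the GSK3 inhibitor CHIR99021 and LIF in a defined basal medium), and nEnd was made in RACL, with the cytokines of NACL. A further set was grown in knockout serum replacement (KOSR) medium and sorted by the reporters into SOX2+ cells and cells double positive for SOX2 and GATA6 (DP). Naive extra-embryonic endoderm (nEnd) is the in vitro equivalent of primitive endoderm (PrE) and was the only endoderm population. For SOX2 there were 2 libraries each from 2iLIF and NACL and 3 each from SOX2+ and DP, and none from nEnd. For GATA6 there were 3 from DP and 2 from nEnd, and none from pluripotent cells. Each histone mark had 2 libraries each from 2iLIF, NACL, SOX2+ and nEnd and 1 from DP. 2iLIF, NACL and nEnd libraries came 1 from each clone, except that both nEnd H3K4me1 libraries were from clone B9. All KOSR cells were of clone B12, from sorting experiments named A, A1 and B. In 2 further H3K27ac and H3K4me1 libraries of experiment B the title and the source label name different sorted populations, and they are given apart as unassigned. The NACL B12 SOX2 library was placed by its title, since its source label names IgG, and the title of DP GATA6 A carries a tag, sub02, that is not explained. In total 33 libraries had a group. The labels do not say whether libraries of one population came from separate cultures, so p-values measure the spread between these libraries, which may be technical.

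Peaks were called by SEACR, and each carries a summed signal, a maximum signal and the place of that maximum, in coverage units on the scale of its own library. Sequencing depth is not in the files, and regions under the caller's threshold are not listed, so a missing peak is not evidence of missing signal. Libraries differed widely, from 1378 to 29623 peaks for SOX2, 1391 to 32510 for GATA6, 13514 to 401853 for H3K27ac and 18627 to 130749 for H3K4me1. The smallest SOX2 and GATA6 lists were both from DP experiment B. For these reasons maxima are given with their standing within the library, and windows are compared by the share of a library's summed peak signal that they hold, in parts per 1000000 (ppm). The population labels were checked on marker windows. Summed H3K27ac shares over 8 nEnd markers were 8065 and 8758 ppm in nEnd and 173.6 to 620.9 in the 6 pluripotent libraries. Of the 8, 7 were higher in both nEnd libraries (30.8% of all windows), Sox7 being the exception. Sox17 and Sox7 are themselves on this list, so the check is not independent of the results for these genes. Over 6 pluripotency markers the sums were 763.4 and 1242 in nEnd and 1466 to 5286 in pluripotent cells. Of the 6, 3 were lower in nEnd (11.3% of all windows).

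SOX17 and SOX7 bind DNA through an HMG box that recognises short CATTGT-like sequences, the same letters read by SOX2, and GATA6 binds GATA sequences. In the blastocyst GATA6 marks the cells that become PrE, with SOX17 appearing later than GATA6 and SOX7 last, whereas SOX2 becomes restricted to the epiblast. H3K4me1 is deposited at enhancers that are active or primed, and H3K27ac at active enhancers and promoters.

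The sequences at the centre of selected nEnd GATA6 peaks of both genes are shown first, because the letters read by GATA and SOX factors can be seen in them. Each is 201 bases around the nEnd GATA6 maximum, read from the plus strand of the GRCm38.p6 genome. Capitals mark a GATA match, spelled AGATAA, on either strand, and other spellings that hold GATA were not marked or counted. They also mark a SOX match, spelled CATTGT, on either strand, and a match on the minus strand appears as its reverse complement. Distances are in kb from the annotated start of the gene, negative upstream. The first 3 belong to Sox17, lie at 22.7 kb, -40.3 kb and -41.1 kb, and carry its highest GATA6 maxima. The fourth lies at -74.4 kb, in a weak GATA6 region and the one that a SOX2 peak of SOX2+ cells also overlapped. That SOX2 peak ran from 4571963 to 4572445 and did not reach the bases printed here. The last 2 are the only regions of the Sox7 window with a GATA6 peak in both nEnd libraries.
Sox17, 22.7 kb, chr1:4474590-4474790: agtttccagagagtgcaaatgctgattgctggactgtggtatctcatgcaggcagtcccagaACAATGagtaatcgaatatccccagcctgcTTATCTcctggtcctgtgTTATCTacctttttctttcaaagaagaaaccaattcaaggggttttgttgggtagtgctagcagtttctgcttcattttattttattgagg
Sox17, -40.3 kb, chr1:4537547-4537747: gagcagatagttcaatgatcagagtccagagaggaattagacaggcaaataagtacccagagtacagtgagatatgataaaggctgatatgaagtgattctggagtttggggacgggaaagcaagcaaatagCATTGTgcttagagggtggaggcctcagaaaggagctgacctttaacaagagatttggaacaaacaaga
Sox17, -41.1 kb, chr1:4538369-4538569: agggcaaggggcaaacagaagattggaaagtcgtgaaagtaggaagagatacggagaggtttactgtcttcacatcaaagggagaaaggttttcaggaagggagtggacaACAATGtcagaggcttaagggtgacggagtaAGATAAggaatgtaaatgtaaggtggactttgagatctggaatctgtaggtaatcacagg
Sox17, -74.4 kb, chr1:4571679-4571879: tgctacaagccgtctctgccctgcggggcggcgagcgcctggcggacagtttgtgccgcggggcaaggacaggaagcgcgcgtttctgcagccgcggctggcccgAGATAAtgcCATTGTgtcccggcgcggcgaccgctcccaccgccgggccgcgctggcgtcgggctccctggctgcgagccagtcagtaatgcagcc
Sox7, -1.2 kb, chr14:63942388-63942588: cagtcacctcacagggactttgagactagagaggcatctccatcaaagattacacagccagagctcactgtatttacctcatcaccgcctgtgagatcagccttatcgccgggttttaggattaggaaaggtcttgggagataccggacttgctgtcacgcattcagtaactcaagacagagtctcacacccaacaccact
Sox7, 58.3 kb, chr14:64001865-64002065: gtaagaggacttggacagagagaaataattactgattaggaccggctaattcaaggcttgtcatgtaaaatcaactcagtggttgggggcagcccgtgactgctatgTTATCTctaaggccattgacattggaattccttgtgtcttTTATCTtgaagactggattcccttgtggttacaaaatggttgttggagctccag

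Sox17 was surrounded by GATA6 peaks in nEnd, and few SOX2 peaks were listed there in the populations assayed for SOX2. Its window held 31 GATA6 peaks over 4 of the 5 GATA6 libraries (11 in nEnd B9, 16 in nEnd B12, 2 each in DP A and DP A1 and none in DP B). The 10 SOX2 libraries gave 2 peaks in all, 1 in DP A and 1 in SOX2+ A. Overlapping SOX2 and GATA6 peaks were merged into 16 regions, all with a GATA6 peak in at least 1 library (54.8% of all merged regions), and 14 of them without SOX2 (82.4% of all GATA6 regions). In 10 of the 16 both nEnd libraries had a peak, a share to be read against 49.6% of all GATA6 regions of the genome.

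**Figure D1:**
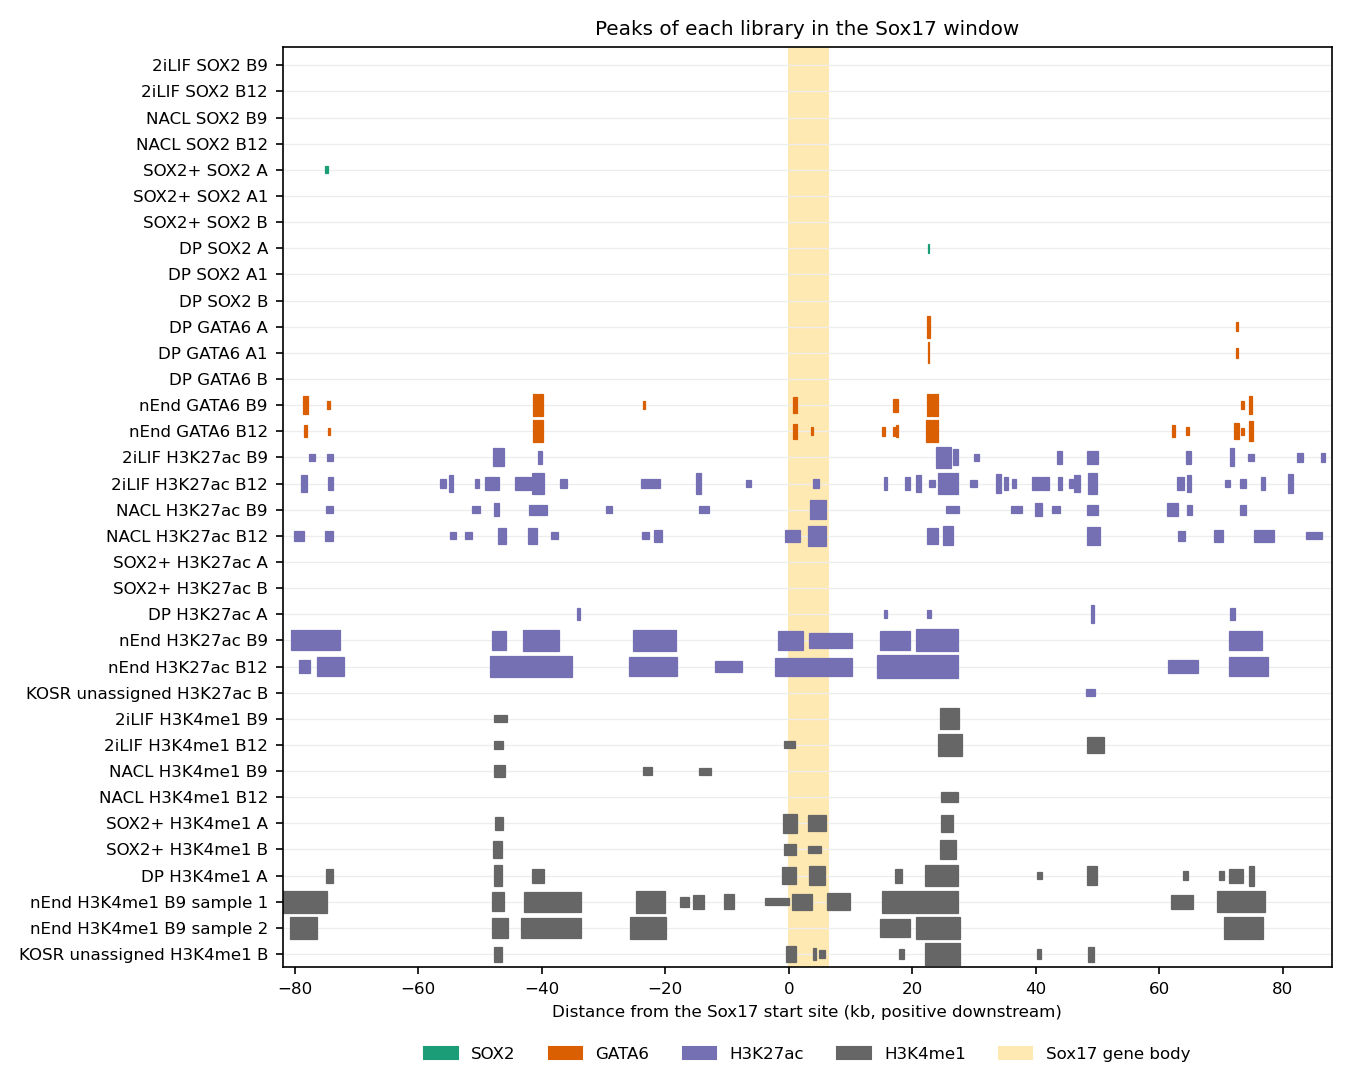
Peaks of all 35 libraries in the Sox17 window, by distance from the Sox17 start site in kb (negative upstream), 1 row per library and coloured by antibody. Each box spans a peak and its height grows with the share of the library's peaks that had a lower maximum signal. The window is nearly empty of SOX2 peaks, and the nEnd GATA6, H3K27ac and H3K4me1 peaks lie over the same stretches, among them those at -40.3, 22.7 and 74.7 kb.

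The strongest GATA6 sites near Sox17 ranked near the top of both nEnd libraries. At -40.3 kb (chr1:4537142-4537975, intergenic) the maximum was 214 in nEnd B9 and 224 in nEnd B12, rank 63 of 24223 peaks and rank 45 of 32510. A second region directly beside it at -41.1 kb (chr1:4538205-4538754) reached 167 and 188, with 98.9% and 99.7% of the peaks of each library lower. No DP library had a GATA6 peak at either. The third strong site was downstream of the gene at 22.7 kb (chr1:4474285-4475089, intergenic), with maxima of 176 and 181 in nEnd, ranks 203 and 136. It adjoined a further region at 23.4 kb (chr1:4473218-4474224) with maxima of 114 and 120. These were the 4 highest regions in both clones and formed 2 pairs, one on each side of the gene, with -40.3 kb the highest and 23.4 kb the lowest of the 4 in each clone.

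The region at 22.7 kb was the only one of the 10 to carry a DP GATA6 peak. Its maximum was 47 in DP A (rank 167 of 8316, 97.9% of peaks lower) and 33 in DP A1 (rank 277 of 3821, 92.2% lower), and DP B had no peak there. Genome-wide, 20.4% of regions in both nEnd libraries had a peak in at least 1 DP library and 11.2% in at least 2. DP B listed 1391 peaks, and of the 1110 regions within the strongest 1391 peaks of both DP A and DP A1, 72.8% were also in DP B. The 22.7 kb region was in that set of 1110 and absent from DP B, and the part of depth in this was not tested. The region was also the only one with a DP SOX2 peak, in experiment A alone (chr1:4474599-4474852). Its maximum of 6 was weak for that library, with 13.2% of peaks lower (rank 3663 of 4859), but it lay at 22.695 kb, next to the DP A GATA6 maximum at 22.679 kb. None of the 7 pluripotent SOX2 libraries had a peak there. Genome-wide, 42.5% of regions with GATA6 in at least 2 DP libraries had SOX2 in at least 1 DP library, and 32.6% had it in at least 1 pluripotent library. In the sequence above, this region holds 2 GATA matches, the nearest centred 5.5 bases from the nEnd GATA6 maximum, and 1 SOX match at 35.5 bases.

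A second region with GATA6 in DP A and DP A1 lay at 72.8 kb (chr1:4424400-4425166). The maxima were 7 and 10 in DP and 28 in nEnd B12, with no peak in nEnd B9. The site was thus weak within both DP libraries (18.6% and 19.1% of peaks lower) and of middling height in nEnd B12 (62.1% lower). Beside it at 74.7 kb a region without DP peaks reached 53 and 54 in nEnd. Of the remaining regions in both nEnd libraries, the Sox17 promoter at 0.779 kb, within an exon of Sox17 that Gm37587 also overlaps, had maxima of 40 in B9 and 23 in B12. The values were 48 and 18 at -78.5 kb, 29 and 17 at 17.5 kb, 17 and 10 at -74.4 kb, and 16 and 5 at 73.4 kb. The other SOX2 peak of the window was at -74.996 kb in SOX2+ A, with a maximum of 6, and its maximum lay to the side of the GATA6 maxima at -74.4 kb.

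**Figure D2:**
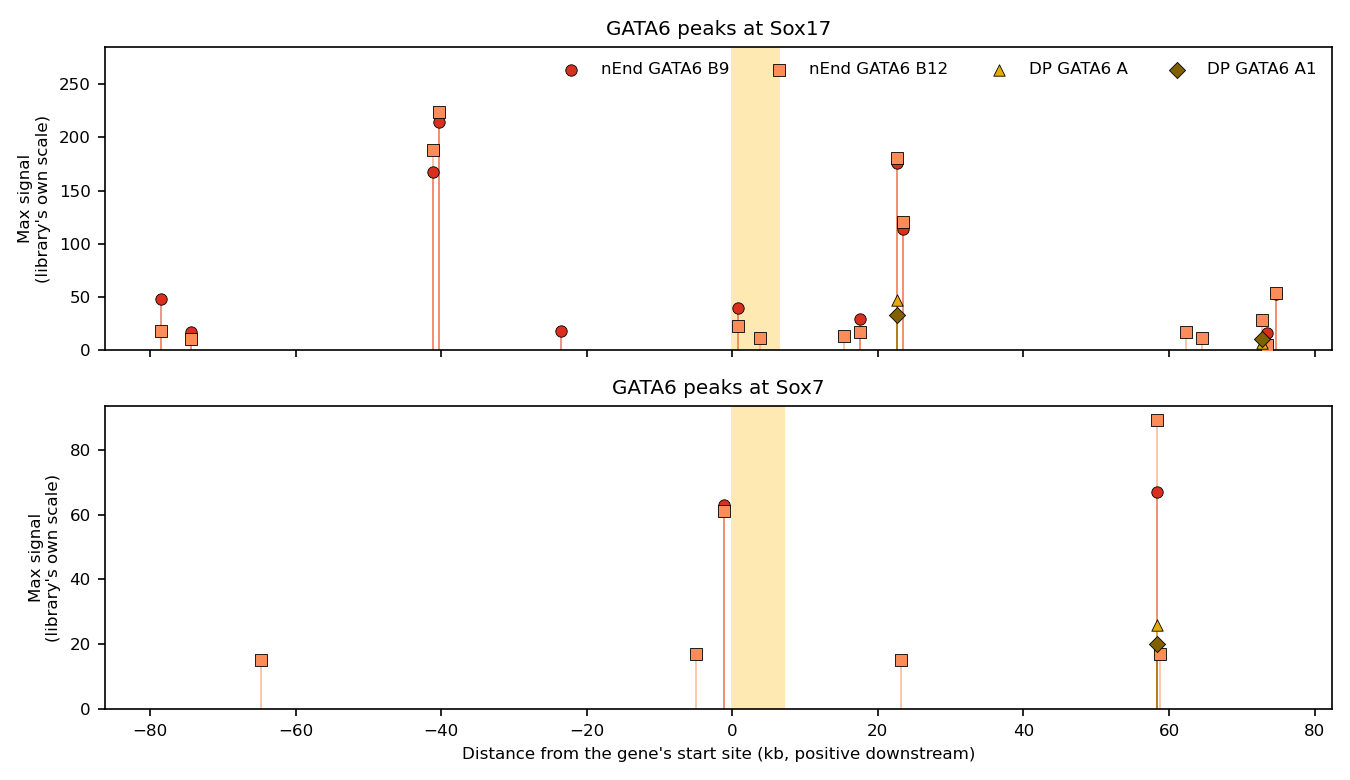
Highest GATA6 maximum in each merged region of the Sox17 (top) and Sox7 (bottom) windows against distance from the start site in kb, with 1 symbol per library and the gene body shaded. Maxima are in coverage units on each library's own scale, so heights compare within a library only. At Sox17 the 4 highest nEnd regions flank the gene and DP peaks occur at 22.7 and 72.8 kb, whereas at Sox7 DP peaks occur only at 58.3 kb.

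Across the 10 Sox17 regions with GATA6 in both nEnd libraries, all 10 lay under H3K27ac in both nEnd libraries, compared with 58.5% of such regions genome-wide. Some neighbouring regions shared 1 broad peak, so the 10 are not separate observations. For example, the nEnd B12 peak from 4469880 to 4482978 covered those at 23.4, 22.7 and 17.5 kb. H3K4me1 covered 8 of the 10 in both nEnd libraries (52.6% genome-wide), the exceptions being the promoter and -74.4 kb, each covered in 1 of 2. No SOX2 peak of any library overlapped 8 of the 10 (80.7% genome-wide). GATA letters were present in 4 of the 10 sequences and SOX letters in 5, with 3 holding both, against 59.4%, 26.2% and 14.9% of 19725 such regions. The sequence at -40.3 kb, with the highest maximum, had no AGATAA and 1 SOX match, and that at -41.1 kb had 1 of each. The -40.3 kb sequence does hold TGATAA and AGATAG, which were not counted, so the GATA counts depend on the spelling searched. At -74.4 kb the letters of a GATA and a SOX match were separated by 3 bases, in a sequence of 71.6% GC.

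DP A carried H3K4me1 over most of these GATA6 regions, including those where no DP GATA6 peak was listed. In DP A, the single DP library for this mark, 8 of the 10 regions lay under an H3K4me1 peak while neither SOX2+ library had one, compared with 24.1% of such regions genome-wide. The unassigned library, which may be DP or SOX2+, had H3K4me1 at 2 of these 8, those at 22.7 and 23.4 kb (44.3% genome-wide). If it was DP the other 6 were not repeated, and if it was SOX2+ the 2 would leave the count. Among the 9 without a DP GATA6 peak this held for 7 (20.6% genome-wide). Both regions with GATA6 in 2 DP libraries had a GATA6 peak in at least 1 nEnd library (79.5% genome-wide) and 1 had it in both (64% genome-wide). Both had H3K4me1 in DP A and in none of the 6 pluripotent libraries, where 28.8% of such regions genome-wide did. DP A listed the most H3K4me1 peaks of any library, 130749 compared with 58085 in SOX2+ A and 78354 in SOX2+ B. The pattern rests on this 1 library, and the part of peak number in it was not tested. Each pair of strong GATA6 regions lay under a single DP A peak, so the 8 regions are not separate observations.

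The H3K4me1 peaks next to the downstream pair showed the difference in detail. In SOX2+ A the peak ran from 4470718 to 4472630 with its maximum at 25.225 kb, and in SOX2+ B from 4470255 to 4472824 with its maximum at 25.508 kb. Both thus ended short of the GATA6 regions at 23.4 and 22.7 kb. The peaks of 2iLIF B9, 2iLIF B12 and NACL B12 had their maxima at 25.776, 25.53 and 25.315 kb. In DP A a single peak ran from 4469858 to 4475250 and its maximum of 22 (94.3% of peaks lower) was at 22.696 kb, on the GATA6 site. In nEnd the mark extended over 12351 bp in sample 1 and 7207 bp in sample 2, with maxima at 25.057 and 24.198 kb. The unassigned library ran from 4469656 to 4475335, as far as DP A, but its maximum was at 25.414 kb as in SOX2+ cells. DP A also had smaller H3K4me1 peaks at the upstream pair (4536938 to 4538864, maximum 9) and at 74.781 kb (maximum 16), where SOX2+ cells had none.

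H3K27ac peaks around Sox17 covered the most bases in nEnd among the 10 H3K27ac libraries. Each nEnd library had 9 peaks, which covered 50.677 kb of the window in B9 and 68.221 kb in B12. Their highest maxima were 140 and 121, at 23.387 and 23.375 kb. The 4 libraries of 2iLIF and NACL had 14 to 34 narrower peaks (at most 3280 bp), which covered 15.008 and 37.951 kb in 2iLIF B9 and B12 and 22.821 and 30.357 kb in NACL B9 and B12. Their highest maxima, on the scales of those libraries, were 11 and 10 in 2iLIF (89.2% and 90.8% of peaks lower) and 10 and 13 in NACL (79.6% and 89.4% lower). Neither SOX2+ library had any peak in the window. Their lists were short (13514 and 14722 peaks), and 59.2% of all windows held a peak in each, compared with 89.9% in DP A. DP A had 5 H3K27ac peaks with maxima of 4 to 7, one of them at the 22.7 kb region (4474265 to 4474880, maximum 4). The start site was covered in both nEnd libraries and in NACL B12, and in no other of the 10. H3K4me1 was distributed differently at the promoter. It covered the start site in 2iLIF B12, both SOX2+ libraries, DP A, the unassigned library and nEnd sample 1, while nEnd sample 2 had no H3K4me1 peak over the gene body at all.

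By merged regions, 6 of the 28 H3K27ac regions of the Sox17 window were in both nEnd libraries (3.12% genome-wide), and 26 were in at least 1 pluripotent library (98.5% genome-wide). None of the 28 was in both nEnd libraries and in no pluripotent library (0.0883% genome-wide).

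Stretches marked by both H3K27ac and H3K4me1 in both libraries of a population were taken as its enhancers. Sox17 had 5 in nEnd, with a summed width of 49.181 kb, and 2 in 2iLIF, 0 in NACL and 0 in SOX2+. At least 2 in 2iLIF were found in 60.1% of all windows, none in NACL in 36.6% and none in SOX2+ in 55%, so these counts were common. The SOX2+ count was fixed by the absence of H3K27ac peaks in both SOX2+ libraries. At least 5 nEnd enhancers were found in 3.88% of all windows, and a summed width as large in 13.2%. The nEnd enhancers at 14.376 to 27.474 kb and at -48.467 to -35.11 kb each contained one of the pairs of strong GATA6 regions. These were also the 2 that overlapped a 2iLIF enhancer. The 2iLIF enhancers were smaller (3.59 and 3.179 kb) and lay at 23.866 to 27.455 kb and -49.221 to -46.043 kb, to the side of the GATA6 maxima.

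The surroundings of Sox7 contained fewer and weaker sites. No SOX2 peak was listed in any of the 10 libraries, and 11 GATA6 peaks formed 6 regions (2 peaks in nEnd B9, 6 in nEnd B12, 2 in DP A, 1 in DP A1, 0 in DP B). Both nEnd libraries shared 2 of the 6 (49.6% genome-wide). The first lay at -1.185 kb (chr14:63942305-63942786), just upstream of the promoter, with maxima of 63 in B9 and 61 in B12. These exceeded 81.5% and 87.5% of the peaks of each library, and no DP library had a peak there. The second lay at 58.3 kb (chr14:64001213-64002108) within an intron of Rp1l1, with maxima of 67 and 89 (83.4% and 94.2% of peaks lower). Neither reached the standing of the Sox17 pairs.

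The 58.3 kb region was the only site of DP GATA6 in the Sox7 window. The maximum was 26 in DP A (rank 818 of 8316, 89.5% lower) and 20 in DP A1 (rank 945 of 3821, 72.6% lower). It was among the strongest 1391 peaks of both and absent from DP B, as was the 22.7 kb region of Sox17. DP A had an H3K4me1 peak there (64001763 to 64002997) whose maximum at 58.256 kb lay beside the GATA6 maximum at 58.282 kb, and no pluripotent library had H3K4me1 at this site. Consequently, all 3 regions of the 2 windows with GATA6 in 2 DP libraries had H3K4me1 in DP A and in none of the 6 pluripotent libraries. Genome-wide 28.8% of such regions did, and the count rests on DP A alone, the library with the most H3K4me1 peaks (130749). The sequence at 58.3 kb holds 2 GATA matches, the nearest 9.5 bases from the maximum, and no SOX match. The sequence at -1.2 kb holds neither.

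**Figure D3:**
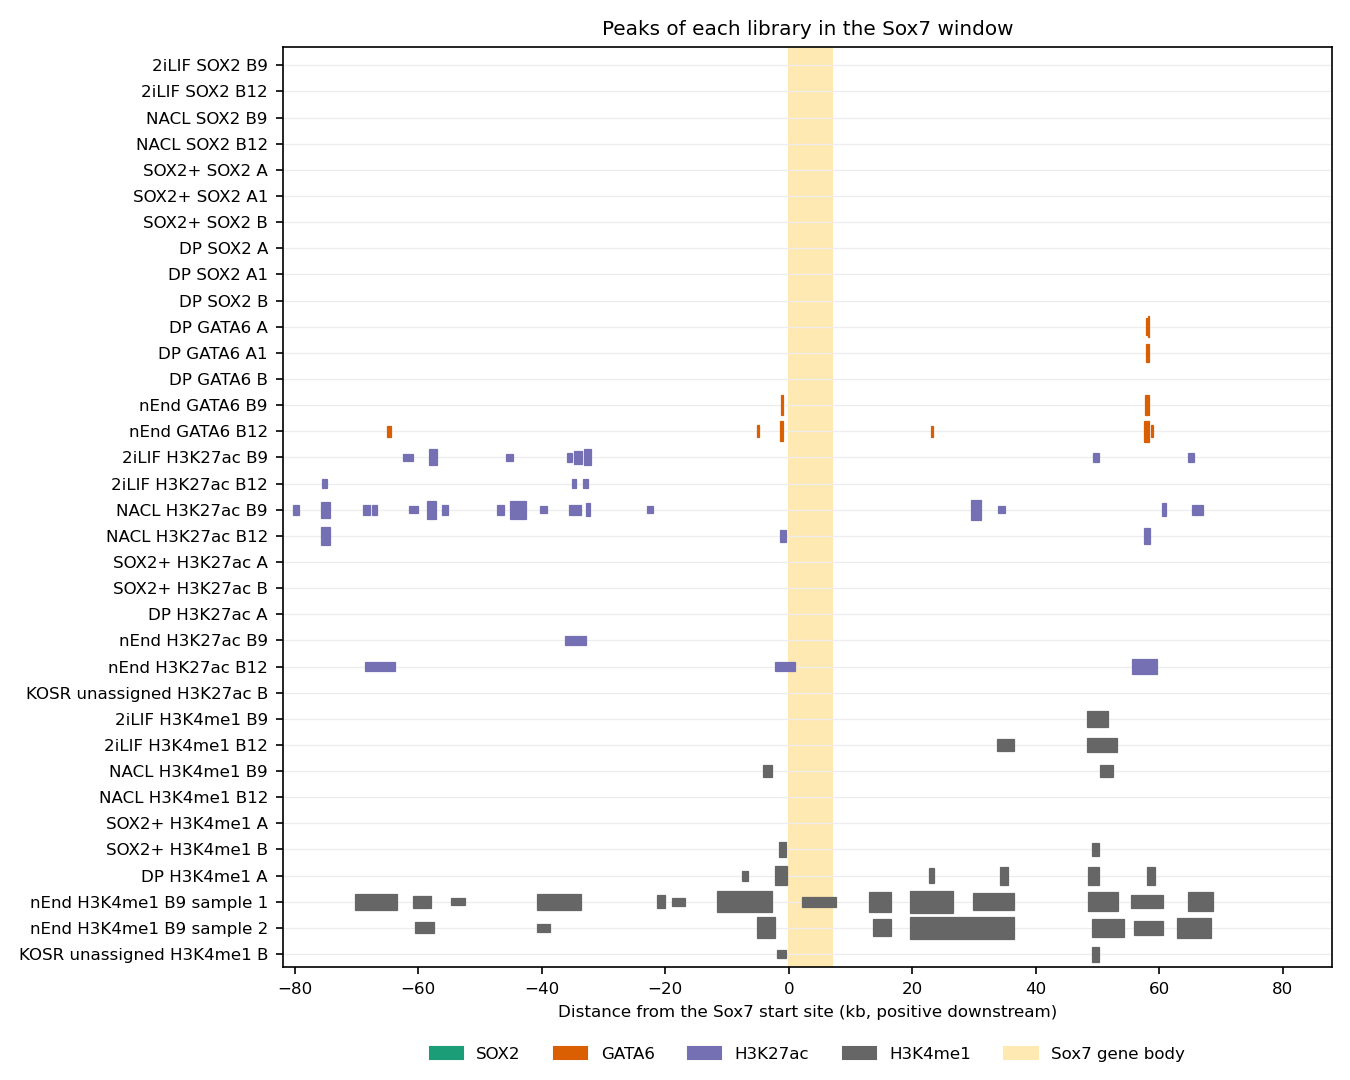
Peaks of all 35 libraries in the Sox7 window, by distance from the Sox7 start site in kb (negative upstream), drawn as for Sox17. H3K4me1 peaks of both nEnd libraries span much of the window, while nEnd H3K27ac peaks are few and none lies at the same place in both clones.

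Sox7 in nEnd was marked by H3K4me1 without a reproducible H3K27ac peak. H3K4me1 covered 67.877 kb of the window in nEnd sample 1 (14 peaks) and 43.052 kb in sample 2 (8 peaks), compared with 0 to 7.757 kb in the 6 pluripotent libraries and 7.891 kb in DP A. The highest maxima were 41 at 21.759 kb and 43 at 23.255 kb, and peaks directly upstream reached 36 at -6.983 kb and 37 at -4.332 kb. Of 14 merged H3K4me1 regions, 8 were in both nEnd libraries (11.4% genome-wide), and 5 of the 14 were in both nEnd libraries and in no pluripotent library (3.23% genome-wide). The Sox17 window had 6 and 3 of 14 by the same counts. Neither nEnd H3K4me1 library covered the Sox7 start site. H3K27ac was listed once in nEnd B9 (63907445 to 63910904, in an intron of Pinx1) and 3 times in nEnd B12, at -64.836 kb, at the promoter and at 58.285 kb, all 3 over GATA6 regions, of which the first was a GATA6 peak of nEnd B12 alone. The B9 and B12 peaks did not overlap, so Sox7 had 0 nEnd enhancers by the definition above, as did 44.4% of all windows. The 0 of 18 merged H3K27ac regions in both nEnd libraries is to be read against 3.12% genome-wide, so that neither count of 0 sets Sox7 apart.

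Window shares put both genes on one scale. In bulk cells a share cannot tell more signal per cell from more cells with signal. For Sox17, the GATA6 share was 999.8 and 1021 ppm in nEnd B9 and B12, and 463.9, 566.5 and 0 in DP A, A1 and B. Ranked by share among all 21938 windows, Sox17 was 109th and 100th in nEnd and 1313th and 1244th in DP A and A1. Both nEnd values lay above all DP values, as in 47.3% of tested windows. The means were 1010 ± 15.1 (SD, n = 2) and 343 ± 302 (SD, n = 3), a difference of 667 ppm. The exact two-sided permutation test gave p = 0.2, the smallest that 2 against 3 libraries allow, and 0.353 after Benjamini-Hochberg adjustment over all windows. The separation depended on the measure and the extent of the window. With a flank of 20 kb the difference was 131 ppm (exact permutation p = 0.4), and by share of the number of peaks it was 218 ppm (p = 0.6), so that the groups overlapped in both. For Sox7, the GATA6 share was 164.9 and 228.8 in nEnd and 286.8, 422.1 and 0 in DP, so that the groups overlapped (difference -39.4, exact permutation p = 0.8, adjusted 0.938). The direction for Sox7 changed without DP A1 (53.5 ppm).

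For H3K27ac at Sox17, the shares were 611.4 and 548.7 ppm in nEnd. They were 29.6 and 54.2 in 2iLIF, 35.1 and 55.5 in NACL, 0 and 0 in SOX2+, and 34.9 in DP A. Both nEnd values exceeded all 6 pluripotent values, as in 30.8% of tested windows. The means of 580 ± 44.4 (SD, n = 2) and 29.1 ± 24.7 (SD, n = 6) differed by 551 ppm. The size of the ratio depended on the processing, with means of 580 and 43.6 against 2iLIF and NACL alone, 435 and 49.5 by share of the number of peaks, and 382 and 38.6 by share of the bases covered. This difference ranked 499th of 21382 windows, with exact permutation p = 0.0714, the smallest possible for 2 against 6, and an adjusted p of 0.170. No window passed an adjusted p of 0.05 in the exact test, nor an unadjusted one. With limma on log2(share + 10), a model that pools the spread over all windows, the difference was 4.29 (SE 0.88) with an adjusted p of 0.00633, and 24.7% of windows passed.

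For H3K27ac at Sox7, the shares were 12.7 and 44.3 in nEnd against 17.8 and 2.70 in 2iLIF, 36.4 and 6.64 in NACL, 0 and 0 in SOX2+ and 0 in DP A. The nEnd libraries lay within the range of the pluripotent ones or just above it. The means were 28.5 ± 22.3 (SD, n = 2) and 10.6 ± 14.3 (SD, n = 6), with exact permutation p = 0.214 (adjusted 0.394). Without nEnd B12 the difference fell from 17.9 to 2.15 ppm. The call depended on the extent of the window as well, since with 150 kb on either side the difference was 136 ppm and the groups no longer overlapped.

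H3K4me1 shares lay higher in both nEnd libraries at both genes. Sox17 held 451.8 and 740.0 ppm in nEnd, 57.0 and 47.7 in 2iLIF, 47.0 and 24.5 in NACL, 64.9 and 49.2 in SOX2+, and 132.3 in DP A. DP A thus lay above all 6 pluripotent libraries and below both nEnd libraries, a position given by 1 library and not tested. In DP A 43.3% of all windows held as large a share or larger. Its median window share was 111 ppm, compared with 64.2 to 95.4 in the 6 pluripotent libraries. Sox7 held 378.5 and 637.2 in nEnd, 32.9 and 23.8 in 2iLIF, 37.2 and 0 in NACL, 0 and 14.02 in SOX2+, and 34.8 in DP A, which fell within the pluripotent range. For both genes the nEnd values lay above all pluripotent values, as in 19.4% of tested windows. The means were 596 ± 204 and 48.4 ± 13.6 for Sox17 (rank 221 of 20352), and 508 ± 183 and 18.0 ± 16.1 for Sox7 (rank 297), with SD over n = 2 and n = 6. Each had exact permutation p = 0.0714, the smallest possible, and an adjusted p of 0.187. The size of both differences depended on the processing. At Sox17 the difference of 548 ppm was 242 with a flank of 20 kb and 274 by share of the number of peaks. At Sox7 the difference of 490 ppm was 295 with a flank of 20 kb and 844 with 150 kb. In limma the log2 differences were 3.37 (SE 0.45, adjusted p = 0.000314) and 4.42 (SE 0.75, adjusted p = 0.00138), where 28% of windows passed. Both nEnd H3K4me1 libraries were of clone B9, and the title of nEnd sample 2 carries the same numeric tag as the 2 NACL H3K4me1 libraries. Against those alone, sample 2 was also higher at both genes.

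SOX2 shares at Sox17 were 94.3 ppm in DP A, 21.3 in SOX2+ A and 0 in the other 8 libraries. DP was therefore not distinguishable from the 7 pluripotent libraries (31.4 ± 54.4, n = 3, against 3.05 ± 8.06, n = 7, exact permutation p = 0.6, adjusted 0.795), where 5.38% of windows were higher in all DP libraries. The comparison with the 3 SOX2+ libraries gave exact permutation p = 1, with 7.11% of windows higher in all DP libraries and 26.6% lower. Both differences rest on the single peak of DP A, and without that library they were -3.05 and -7.11 ppm. At Sox7 every share was 0 and no test was made. A SOX2 peak was listed in 12.3% to 81.6% of all windows, depending on the library.

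**Figure D4:**
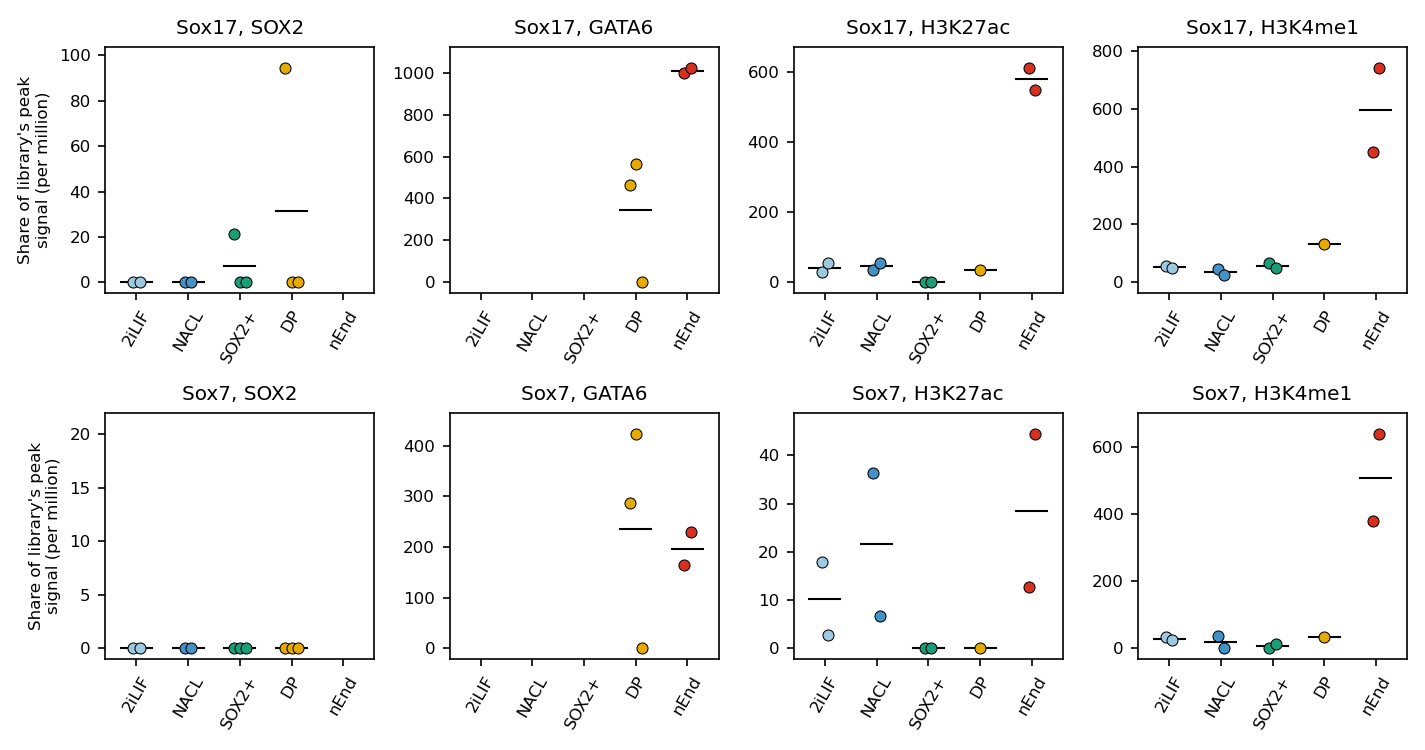
Share of each library's summed peak signal in the Sox17 (top) and Sox7 (bottom) windows, in ppm, by population and antibody. Points are libraries, bars are means, and the vertical scale differs between panels. H3K4me1 is high in both nEnd libraries at both genes, whereas H3K27ac is high in nEnd at Sox17 only and the nEnd values at Sox7 are 12.7 and 44.3.

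Set beside all windows, Sox7 combined a large H3K4me1 difference with a small H3K27ac one. Among windows with H3K4me1 higher in both nEnd libraries than in all 6 pluripotent libraries, 62.7% had H3K27ac higher as well. Of the 297 windows with an H3K4me1 difference at or above that of Sox7, 255 (85.9%) had H3K27ac higher. Sox17 belonged to these 255 and Sox7 did not. As a description over mean shares, the log2 differences for H3K4me1 and H3K27ac were 3.38 and 3.92 at Sox17, and 4.21 and 0.90 at Sox7.

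**Figure D5:**
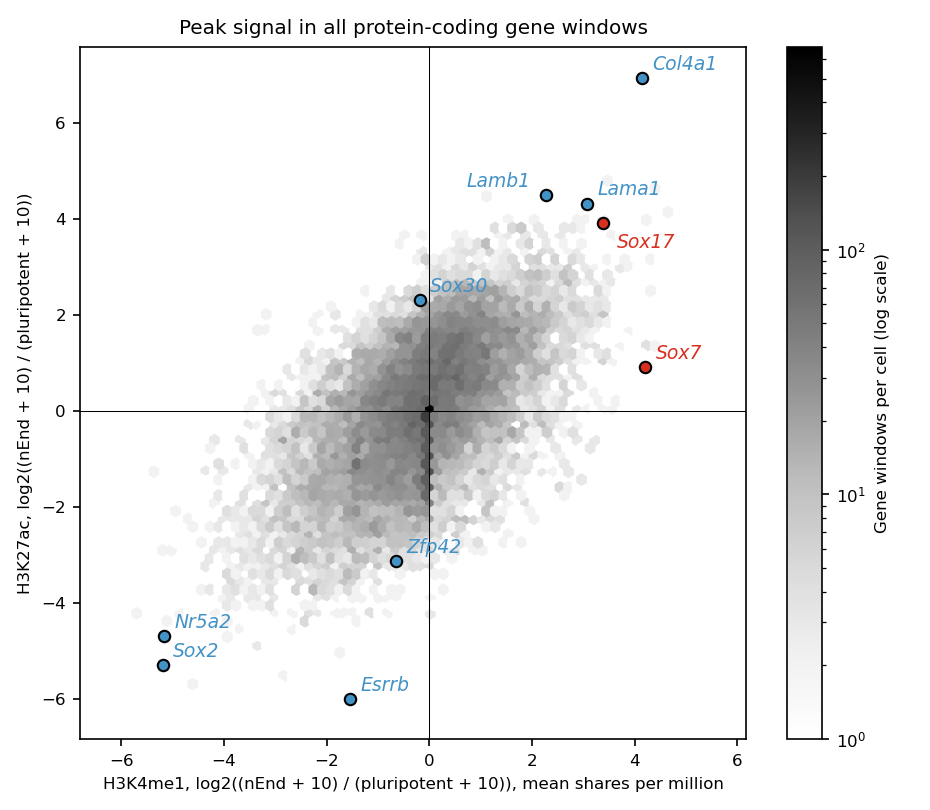
Log2 ratio of mean shares (plus 10 ppm), nEnd over pluripotent, for H3K4me1 (horizontal) and H3K27ac (vertical) in all protein-coding windows, shaded by their number on a log scale. Sox17 lies at 3.38 for H3K4me1 and 3.92 for H3K27ac, and Sox7 at 4.21 and 0.90.

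The other genes of the SOX family were scored in the same way, counting a gene as higher or lower where all libraries of both groups were apart. Of 19 SOX genes tested, H3K27ac was higher in nEnd for 3 and lower for 3 (30.8% and 11.3% of all windows), and the median difference was -4.13 ppm (4.39 over all windows). The 3 higher genes were Sox17, Sox30 (504 in nEnd and 94.3 in pluripotent cells) and Sox10 (112 and 61.6). Sox2 (0 and 383), Sox1, a neural factor (0 and 103), and Sox6 (52.1 and 155) were lower. For H3K4me1, 2 of 19 were higher, Sox17 and Sox7 themselves, and 7 were lower (19.4% and 18.7% of all windows), with a median of -62.0 (-2.95 over all windows). Sox18, the third SOXF gene and an endothelial factor, had H3K27ac shares of 101 and 67.4 and H3K4me1 shares of 47.9 and 37.1, and the groups overlapped for both. GATA6 was higher in both nEnd libraries than in all DP libraries for 5 of 14 SOX genes and lower for 1 (47.3% and 9.33% of all windows).

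Genes of the PrE programme had the direction of Sox17 in most cases. H3K27ac was higher in nEnd for 16 of 22 PrE regulators, a list that includes Sox17 and Sox7, and lower for none (30.8% and 11.3% of all windows), with a median difference of 715 ppm. H3K4me1 was higher for 18 and lower for none (19.4% and 18.7% of all windows, median 569). Collagen IV and laminin genes of the list were among those with the largest H3K27ac differences. Collagen IV genes Col4a2 and Col4a1, which are neighbours, had 3726 and 3493 ppm in nEnd compared with 50.3 and 18.99 in pluripotent cells. Fgfr2, a receptor for FGF, had the next difference, with 3535 and 1729, but its annotated gene body spans 2961 kb, so that its window is far larger than the others. The laminin genes had 2188 and 866 at Lamc1, 1392 and 52.2 at Lamb1, and 1370 and 59.6 at Lama1. Sox17, at 580, was thus below the list's leading genes and Sox7 was one of the 6 PrE genes whose H3K27ac groups overlapped. Shares are not scaled by window length, which limits this order. The gene bodies of Col4a1, Col4a2, Lama1 and Lamc1 span 114 to 136 kb, and that of Sox17 6.42 kb. GATA6 was higher in nEnd than in DP for 9 of the 22 and lower for 5 (47.3% and 9.33% of all windows), a share of higher genes no larger than the background. Among 11 visceral and parietal endoderm markers, H3K27ac was higher for 7 and lower for none (30.8% and 11.3% of all windows, median 147), for example Snai1 (380 and 39.8), Thbd (277 and 12.7) and Krt19 (185 and 9.09), and H3K4me1 was higher for 5 and lower for 1.

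Pluripotency regulators were lower or overlapped between the groups. H3K27ac was lower in nEnd for 6 of 12 and higher for none (11.3% and 30.8% of all windows), with a median of -212, including the orphan receptor genes Esrrb (0 and 633) and Nr5a2 (5.10 and 378) and Zfp42, the naive marker also called Rex1 (41.1 and 439). H3K4me1 was lower for 5 and higher for none (18.7% and 19.4% of all windows). For SOX2 in DP against all pluripotent libraries, 4 of 21 PrE genes were higher and 1 lower (5.38% and 11.7% of all windows), compared with 1 and 2 of 17 SOX genes, 2 and 2 of 12 pluripotency genes and 0 and 2 of 8 endoderm markers.

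The windows whose shares over the 33 libraries were most like those of each gene were then listed, as a description in which libraries of one antibody share peak number and scale. For Sox17 these included Sftpb (Pearson r = 0.903), Usp39 (0.902), Pcgf5 (0.885) and Igf2r (0.882), where Sftpb and Usp39 are neighbours. The median r over all windows was 0.150 and the 99th percentile 0.745. Sox7 (r = 0.727) was 320th for Sox17. For Sox7 the nearest were Amot (0.873), Bend5 (0.870), 1700123O20Rik (0.839), Fnip1 (0.838) and Psmb11 (0.829), with a median of 0.0773 and a 99th percentile of 0.646, and Sox17 was 59th. With a pseudocount of 1 in place of 10, 3 of the 5 names remained for each gene.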

How the data were processed

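Per the labels and the study's methods, CUT&RUN reads were trimmed (cutadapt 1.18), aligned to mm10 (Bowtie2 2.3.4.1), filtered and converted (SAMtools 1.9, Picard 2.9.1, bedtools 2.27.1, deepTools 3.2.0), and peaks were called per library with SEACR against IgG. The methods and the file titles disagree on which of the stringent and relaxed settings was used for which antibody. The deposited peak lists hold the total and maximum coverage signal of each peak, as whole-number coverage that is not scaled between libraries. No per-sample depth is given in the sources used here. IgG libraries were not analysed here.

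From these, peaks overlapping a window by at least 1 bp were summed and divided by the library's total. Windows were GENCODE M21 gene bodies plus 80 kb. The difference of means was tested over libraries with an exact two-sided permutation test, adjusted by Benjamini-Hochberg over all protein-coding windows with a peak in the comparison (Python 3.11.15, NumPy 2.4.6, SciPy 1.17.1). limma 3.58.1 (R 4.3.3) on log2(share + 10), flanks of 20 and 150 kb, peaks assigned by the position of their maximum, shares of peak number and of bases covered, pluripotent cells as 2iLIF and NACL only, the stronger 50% of the peaks, equal peak numbers, blocks by experiment or clone, and leaving out each library were alternatives. The scripts were tested on simulated data. Sequences came from GRCm38.p6 (pysam 0.24.0). Named genes were the members, the 5 most like each by Pearson r, and at most 6 per list with the largest differences. One of the genes most like Sox17 is not reported here. The members and gene lists were chosen with earlier results of these data known.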

Additional observations from a re-analysis of the deposited data

Results flagged for a closer look

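In the 2 unassigned KOSR libraries of experiment B, which no comparison used, the Sox17 window held 25.4 ppm of the H3K27ac signal and 74.9 ppm of the H3K4me1 signal. Both stood above the SOX2+ libraries, which had 0 and 0 for H3K27ac and 64.9 and 49.2 for H3K4me1. The H3K27ac value came from 1 peak at 49.214 kb with a maximum of 5. At Sox7 the change in H3K27ac from the mean of 2iLIF and NACL to nEnd went in opposite directions in the 2 clones, by -14.4 ppm in B9 and 39.7 in B12. With 1 nEnd library per clone this difference was not tested.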

How the results depend on the processing

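Of 162 alternatives to the 10 window comparisons, 149 kept both the direction and the side of the threshold, which says little about stability. Of these, 17 and 14 were the Sox7 SOX2 comparisons of 0 with 0, and in most others the smallest p of the exact test lies above 0.05. limma on log2(share + 10) placed 3 past an adjusted p of 0.05, namely Sox17 H3K27ac (4.29), Sox17 H3K4me1 (3.37) and Sox7 H3K4me1 (4.42). Over all windows the median limma difference was 0.18 and -0.13 for these marks, 1.68 for GATA6 in nEnd against DP, and -0.98 and -1.23 for SOX2 in DP against pluripotent and SOX2+ cells. Relative to 1.68, the Sox7 GATA6 value of 0.91 was below the median window. The Sox17 GATA6 difference of 667 ppm was 131 with a flank of 20 kb, 218 by share of the number of peaks and 3049 with equal peak numbers, and the Sox7 value with equal peak numbers was -393. The Sox7 GATA6 difference, -39.4 ppm, turned positive in limma (0.91), with a flank of 20 kb (56.2) and without DP A1 (53.5). The Sox17 SOX2 differences became 0 with the stronger 50% of the peaks and with equal peak numbers (1378), and -3.05 and -7.11 without DP A. The Sox7 SOX2 difference against pluripotent cells became -1.98 with 150 kb flanks. Leaving out 1 library at a time gave 520 to 582 for Sox17 H3K27ac, 403 to 692 for Sox17 H3K4me1, 495 to 778 for Sox17 GATA6, -3.05 to 44.1 and -7.11 to 40.0 for Sox17 SOX2, 2.15 to 33.7 for Sox7 H3K27ac, 361 to 619 for Sox7 H3K4me1 and -158 to 53.5 for Sox7 GATA6. The replicate block by experiment (24.3 for Sox17 SOX2, p = 1 in the exact permutation test, smallest possible 0.25) and by clone (536 for Sox17 H3K27ac, p = 0.222, the smallest possible, and 12.6 for Sox7, p = 0.667) changed no call. Same-experiment libraries deviated together only weakly (correlations 0.0234 to 0.0305 over windows), and same-clone libraries at 0.127 and 0.0959. Without read counts, no depth interval or detection limit could be given for single regions.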
